A study of Mus musculus with 16 samples.

Results

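The potassium channel genes are the rows of the count table whose gene symbol starts with Kcn, 98 of 24421 rows. By the naming of their families they are 40 pore-forming alpha subunits of voltage-gated (Kv) channels, 12 accessory subunits of Kv channels, 15 inward rectifiers, 14 two-pore-domain channels, 12 channels or subunits gated by calcium or sodium, and 5 other rows, mostly noncoding or antisense RNAs. RNA carrying a poly(A) tail was sequenced from whole ventricles of C57BL/6N mice, all labelled male, that had surgery at 9 to 10 weeks of age and gave their hearts 5 weeks later. Wildtype littermates (WT) and homozygous JP2CR mice each had either a sham operation or transverse aortic constriction (TAC), a constriction of the aorta that makes the left ventricle pump against a higher pressure. JP2CR is a knock-in that lacks the codons for residues 563 to 568 of Jph2, the gene of junctophilin-2, a protein that ties the T-tubules of a heart muscle cell to its calcium store and that the protease calpain cuts. The 4 groups are therefore WT sham, WT TAC, JP2CR sham and JP2CR TAC, with 4 libraries from 4 mice in each. The study asked whether a junctophilin-2 that calpain cannot cut at this site changes how the heart meets pressure overload.

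Potassium channels let potassium leave the cell, which ends the cardiac action potential and holds the resting potential of the muscle cell. Kv channels open on depolarisation and carry the transient outward and delayed rectifier currents, inward rectifiers hold the resting potential or open on low ATP or acetylcholine, two-pore-domain channels carry background current, and other members open on internal calcium or sodium. Loss of repolarising potassium current with a longer action potential is a long-known feature of hypertrophied and failing hearts.

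The libraries held 9966782 to 16609732 counted reads each, so a count of 3 reads, the upper limit that a count of 0 allows, stood for 0.185 to 0.3137 CPM (the count scaled to a common library size) by library. That limit covers counting error only. JP2CR sham 3 and JP2CR sham 4 held Xist, the RNA of an inactive X chromosome, at 189 and 196 CPM with Y-linked genes at 0, and JP2CR TAC 4 held Xist at 141 CPM beside 118 CPM of Y-linked genes, which goes against the male label. By the best pair of others in its group, every library sat between 2 others for at least 52.9% of the genes that could be placed. WT TAC 3 did so for 96.5% and JP2CR TAC 3 for 95.6% of them. WT sham 3, WT sham 4 and WT TAC 4 did so for 91.8%, 95.5% and 87.4%. No pair of replicates agreed within sampling noise, so each library counted once. Counts of called members are given with and without the 3 libraries with Xist, and with and without WT TAC 3 and JP2CR TAC 3. WT sham 3, WT sham 4 and WT TAC 4 were left out only singly. The fits without the 3 libraries with Xist kept only JP2CR sham 1 and JP2CR sham 2 as JP2CR sham libraries.

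Of the 98 rows, 49 had enough reads to be tested, 38 had reads but too few to test, and 11 had no read in any library. The 11 were Kcna10, Kcnh5, Kcns2, Kcnv1, Kcnk7, Kcnk9, Kcnk12, Kcnk15, Kcnk16, Kcnk18 and the antisense RNA Kcnmb4os2. None of the 38 rows with few reads had more than 18 reads in a library, and the highest totals over all 16 libraries were 106 reads for Kcnj10, 105 for Kcnab3 and 97 for Kcnip1. Two-pore-domain channels had the smallest tested share, with 5 of 14 rows, and 6 of the 11 rows without a read belonged to them. The tested rows were 20 of 40 Kv alpha subunits, 6 of 12 Kv accessory subunits, 8 of 15 inward rectifiers and 8 of 12 calcium- or sodium-gated genes, beside 2 of the 5 other rows.

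Levels were compared between genes as CPM per kilobase of exon, averaged over the 16 libraries. Kcnk3, an acid-sensitive background channel of the two-pore-domain family, stood highest at 80.4 CPM per kb, followed by Kcnj11, the pore of the ATP-sensitive channel of cardiomyocytes, at 59.3 and by Kcnip2, the accessory subunit of the fast transient outward channel, at 55. Kcng2, a silent subunit that joins Kv channels of another subfamily, had 37.7 and Kcnj5, a subunit of the acetylcholine-gated channel, had 29.2. Below them came Kcnh2 at 23.7, Kcnj3 at 21.4, Kcnj8 at 18.7, Kcnj12 at 18.6 and Kcnq1 at 14.5 CPM per kb. Some neighbours in that order were not separated by their spread. Kcnj11 and Kcnip2 had 65.3 ± 3.85 and 64 ± 3.8 CPM per kb (mean ± SD, n = 4) in WT sham, and Kcnj8 and Kcnj12 had 20.4 ± 1.26 and 20.8 ± 1.03. The order changed with TAC: Kcnj3 had 34.4 ± 1.5 CPM per kb in WT sham, above Kcnh2 at 30.5 ± 1.97, and 8.23 ± 1.51 in WT TAC, below Kcnh2 at 16.7 ± 4.14.

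**Figure D1:**
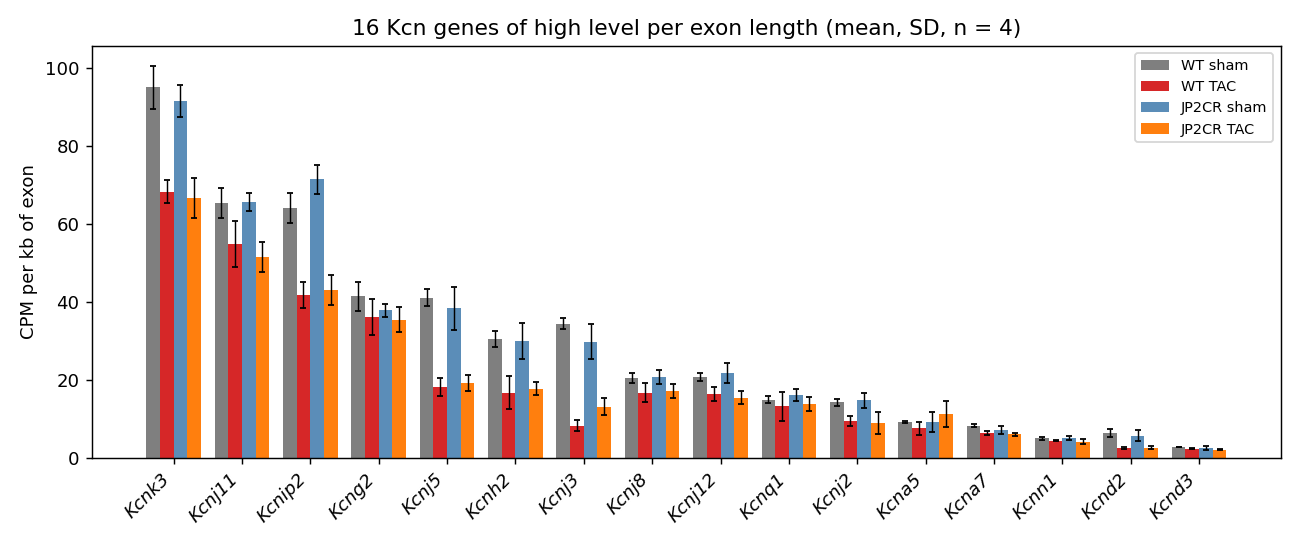
Level of 16 Kcn genes of high CPM per kb of exon (vertical axis), as the mean of each of the 4 groups with its SD (n = 4). Kcnk3 leads in every group, and the Kcnj3 bar drops from 34.4 in WT sham to 8.23 in WT TAC.

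After TAC, potassium channel transcripts fell more often than they rose, in both genotypes. In WT ventricles 21 of the 49 tested members fell and 5 rose (adjusted p under 0.05 over all 13522 genes tested, edgeR quasi-likelihood test), which is 42.9% lower and 10.2% higher. Of all tested genes, 20.8% were lower, 21.1% were higher and 41.9% were called in either direction. In JP2CR ventricles 20 fell and 6 rose, which is 40.8% and 12.2% where all tested genes gave 20.7% lower and 20.7% higher. The median log2 fold change of the tested members was -0.29 in WT and -0.24 in JP2CR, beside -0.001 and -0.004 for all tested genes. Summed over all 98 rows, Kcn transcripts stood at 2073, 2149, 2057 and 2131 CPM in WT sham and at 1548, 1283, 1422 and 1408 CPM in WT TAC. The same sum was 2047, 2089, 2017 and 2052 CPM in JP2CR sham and 1480, 1342, 1415 and 1496 CPM in JP2CR TAC, so that no TAC library reached any sham library in either genotype. The summed level of 10 ventricular cardiomyocyte markers, of which the myosin gene Myh6 is a large share, was also lower after TAC without overlap. It ran from 84100 to 88800 CPM in WT sham and 67000 to 73800 in WT TAC, and from 81000 to 101000 in JP2CR sham and 67800 to 72700 in JP2CR TAC. Of these 10 markers 5 fell and 3 rose in WT, and 6 fell and 3 rose in JP2CR. Their part in the Kcn levels was not tested.

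In all, 18 members fell in both genotypes, among them Kcna1, Kcna2, Kcna6, Kcna7, Kcnd2, Kcnh2, Kcnv2, Kcnip2, Kcnj2, Kcnj3, Kcnj5, Kcnj8, Kcnj11, Kcnj12, Kcnk3 and Kcnn2. Kcnc1, Kcnj14, Kcnn3, Kcnt2 and Kcnq1ot1 rose in both, and none was called in opposite directions. These are 36.7% and 10.2% of the tested members, where 14.7% of all tested genes were lower in both and 15.4% higher in both. A further 3 (Kcnip3, Kcnab1 and Kcnmb1) were called lower in WT alone, 2 (Kcne1 and Kcnn1) were called lower in JP2CR alone, and Kcne4 was called higher in JP2CR alone. The difference between the genotypes was not called for any of these 6 (edgeR adjusted p = 0.101 to 0.851). The remaining 20 tested members were called in neither. The sham and TAC libraries of a member did not overlap for 24 members lower in WT TAC (49% of those tested, where 21% of all tested genes did so) and for 4 higher (all tested genes, 21%). In JP2CR this held for 15 lower (30.6%; all tested genes, 17.3%) and 4 higher (all tested genes, 16.8%). Without the 3 libraries with Xist the counts were 23 lower and 5 higher in WT and 19 lower and 5 higher in JP2CR, and without WT TAC 3 and JP2CR TAC 3 they were 22 and 5 in WT and 17 and 4 in JP2CR.

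**Figure D2:**
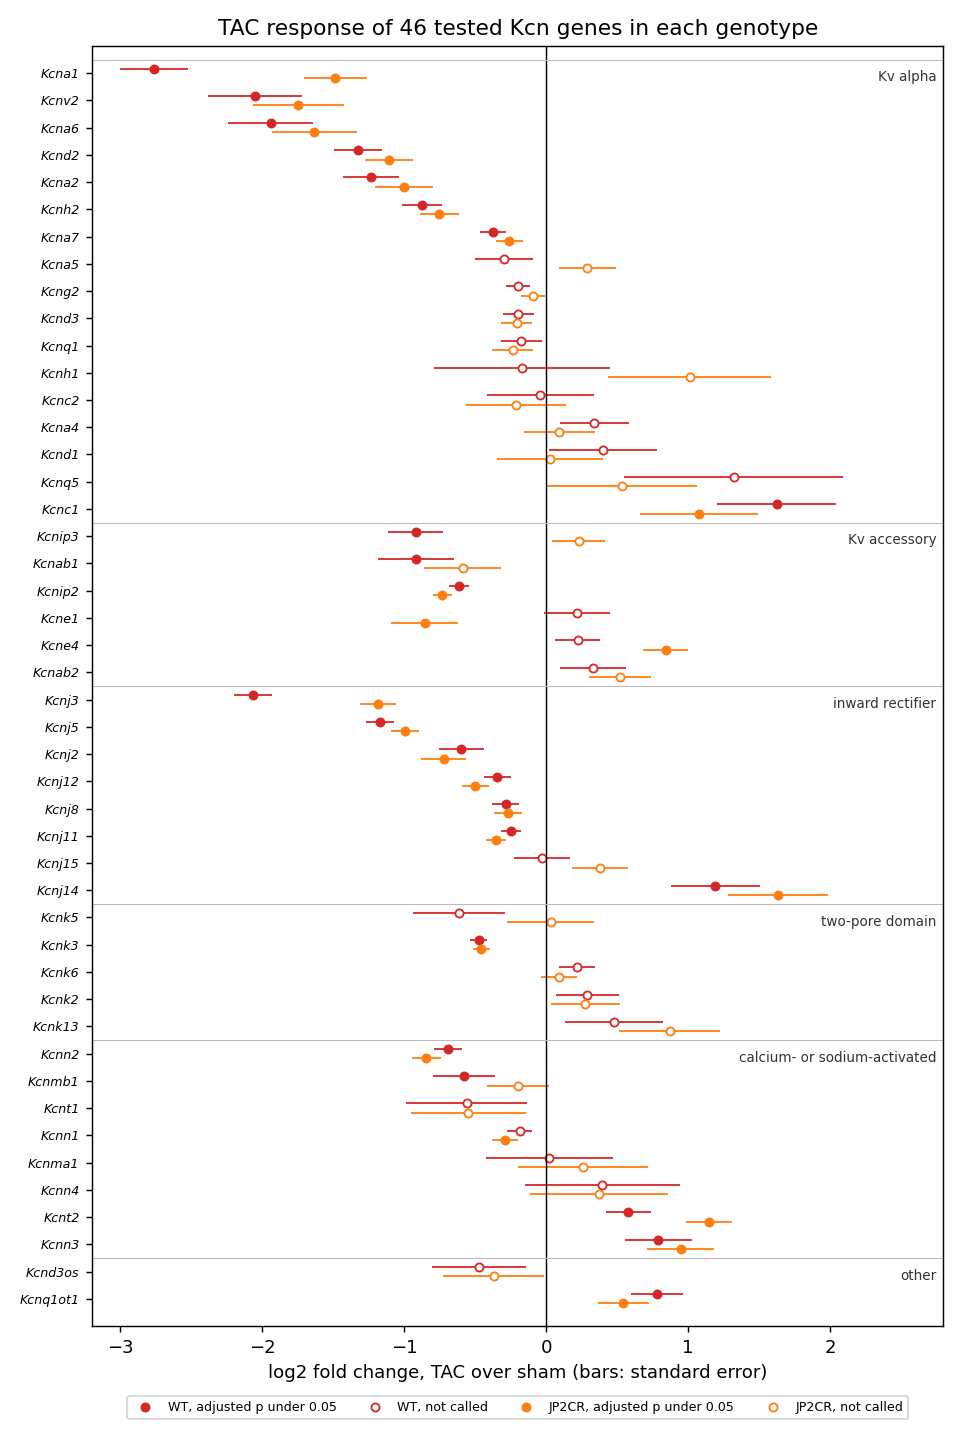
Log2 fold change of TAC over sham (horizontal axis, bars one standard error) for 46 of the 49 tested members, grouped by family, in WT (red) and JP2CR (orange), with filled points for adjusted p under 0.05. Most filled points lie left of 0, and Kcna1 in WT lies farthest left at -2.77.

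The pore gene of the fast transient outward current and its accessory subunit fell together. This current, carried by Kcnd subunits bound to Kcnip2, gives the early repolarisation of the mouse ventricular action potential. Because the pair fell in both genotypes, the 250 bases before the RefSeq start of each (GRCm38.p6) are shown, with GC boxes (GGGCGG, a motif that Sp1 family factors bind) in capitals. The Kcnd2 window is chr6:21215096-21215345, plus strand, just before the gene body and outside any GENCODE exon. The Kcnip2 window is chr19:45816064-45816313, minus strand, also outside GENCODE exons but inside the RefSeq span of the gene, which has further starts upstream.
Kcnd2: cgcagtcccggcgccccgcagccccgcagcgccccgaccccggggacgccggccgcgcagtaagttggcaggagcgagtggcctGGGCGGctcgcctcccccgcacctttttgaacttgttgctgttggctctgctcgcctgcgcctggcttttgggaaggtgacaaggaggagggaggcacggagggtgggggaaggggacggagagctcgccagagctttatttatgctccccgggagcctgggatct
Kcnip2: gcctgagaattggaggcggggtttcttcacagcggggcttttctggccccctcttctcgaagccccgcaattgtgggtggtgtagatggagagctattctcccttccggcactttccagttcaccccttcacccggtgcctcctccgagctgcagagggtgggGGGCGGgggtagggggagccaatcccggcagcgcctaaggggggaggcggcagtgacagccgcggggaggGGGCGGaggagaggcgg
The Kcnd2 window has 68.8% G and C and the Kcnip2 window 66.8%.

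Kcnd2 stood at 38, 26.7, 35.3 and 31.6 CPM in the WT sham libraries 1 to 4 and 11.6, 13.2, 12.8 and 14.6 in WT TAC. In JP2CR mice Kcnd2 had 32.1, 32.9, 18.1 and 32.8 CPM in JP2CR sham and 15.9, 11.7, 11.7 and 13.9 in JP2CR TAC. Every TAC library lay below every sham library of its genotype, with JP2CR sham 3 the lowest sham library. The log2 fold change was -1.33 ± 0.17 (standard error) in WT and -1.11 ± 0.17 in JP2CR (edgeR adjusted p = 6.36e-06 and 5.56e-05), a level 2.51 and 2.16 times lower. Kcnip2 stood at 240, 210, 216 and 223 CPM in the WT sham libraries 1 to 4 and 156, 131, 140 and 153 in WT TAC. In JP2CR mice Kcnip2 had 261, 251, 230 and 251 CPM in JP2CR sham and 144, 141, 144 and 169 in JP2CR TAC. Its sham and TAC libraries did not overlap either. The changes were -0.62 ± 0.07 and -0.73 ± 0.07 (edgeR adjusted p = 1.8e-06 and 4.41e-07).

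Kcnd3, the other Kcnd pore gene of the ventricle, differed by less. It stood at 26.3, 25.8, 26.1 and 25 CPM in the WT sham libraries 1 to 4 and 23.5, 21.1, 23.5 and 22.1 in WT TAC. In JP2CR mice Kcnd3 had 25.7, 29.3, 18.8 and 19 CPM in JP2CR sham and 20.7, 21.1, 18.7 and 19.9 in JP2CR TAC. The WT TAC libraries lay below the WT sham libraries, while in JP2CR the sham libraries 3 and 4 lay among the TAC values. Neither change passed the test (-0.20 ± 0.11 in WT and -0.21 ± 0.11 in JP2CR, edgeR adjusted p = 0.16 and 0.143). Without JP2CR sham 3 the change in JP2CR was -0.30 and passed (edgeR adjusted p = 0.0266), and without all 3 libraries with Xist it was -0.44 in JP2CR and -0.20 in WT (edgeR adjusted p = 0.00066 and 0.0197). The latter fit kept only JP2CR sham 1 and JP2CR sham 2 of the JP2CR sham group. The log2 ratio of Kcnd2 to Kcnd3 within a library differed between TAC and sham by -1.129 in WT and by -0.91 in JP2CR, and that of Kcnip2 to Kcnd2 differed by 0.707 in WT. Each of these had p = 0.0286 in a two-sided exact permutation test, the smallest that 4 against 4 libraries allow, and adjusted p = 0.0714 over the 10 ratio tests made. In JP2CR the ratio of Kcnip2 to Kcnd2 differed by 0.36 (two-sided exact permutation p = 0.143, adjusted p = 0.238). Kcna4, a pore gene of the slow transient outward current, stood at 4.45, 3.48, 3.09 and 3.12 CPM in the WT sham libraries 1 to 4 and 6.04, 3.32, 4.02 and 4.5 in WT TAC. In JP2CR mice Kcna4 had 3.35, 4.76, 2.84 and 2.93 CPM in JP2CR sham and 5.76, 2.82, 3.01 and 3.07 in JP2CR TAC. WT TAC 1 and JP2CR TAC 1 were the highest libraries, the groups overlapped, and the changes of 0.34 ± 0.24 and 0.09 ± 0.25 did not pass.

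Delayed rectifier genes fell in part. Kcnh2, the pore of the rapid delayed rectifier, stood at 138, 159, 143 and 152 CPM in the WT sham libraries 1 to 4 and 106, 57.2, 84.7 and 75.9 in WT TAC. In JP2CR mice Kcnh2 had 125, 131, 148 and 175 CPM in JP2CR sham and 88.8, 75.6, 83.9 and 94.5 in JP2CR TAC. Sham and TAC libraries did not overlap in either genotype, and WT TAC 2 was the lowest library. The changes were -0.88 ± 0.14 and -0.75 ± 0.14 (edgeR adjusted p = 6.82e-05 and 0.000315). Kcnq1, the pore of the slow delayed rectifier, stood at 59.7, 65, 56.7 and 63.1 CPM in the WT sham libraries 1 to 4 and 74, 38.6, 57.6 and 46.7 in WT TAC. In JP2CR mice Kcnq1 had 58.8, 73.8, 66.8 and 64.5 CPM in JP2CR sham and 56.9, 54, 65.4 and 47.9 in JP2CR TAC. The groups overlapped, with WT TAC 1 above all WT sham libraries, and neither change passed (-0.18 ± 0.14 and -0.24 ± 0.14). Without WT TAC 1 the WT change was -0.36 and passed (edgeR adjusted p = 0.0226). Its partner Kcne1 stood at 5.79, 7.64, 7 and 5.75 CPM in the WT sham libraries 1 to 4 and 8.06, 9.43, 6.28 and 6.58 in WT TAC. In JP2CR mice Kcne1 had 6.99, 12.1, 8.26 and 10.5 CPM in JP2CR sham and 8.31, 3.87, 5.1 and 3.41 in JP2CR TAC. It was called lower in JP2CR (-0.86 ± 0.24, edgeR adjusted p = 0.00764) with JP2CR TAC 1 among the sham values, and was not called in WT (0.22 ± 0.23). That call was lost without the 3 libraries with Xist (-0.70, edgeR adjusted p = 0.0607), and the difference between the genotypes was not called (-1.07 ± 0.33, edgeR adjusted p = 0.216).

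Kcnv2, a silent subunit that opens no channel alone and joins other Kv subunits, fell in both genotypes. It stood at 14.2, 13.4, 13.9 and 14.1 CPM in the WT sham libraries 1 to 4 and 1.94, 3.65, 2.76 and 4.98 in WT TAC. In JP2CR mice Kcnv2 had 10.1, 9.24, 14.6 and 25.7 CPM in JP2CR sham and 4.12, 2.74, 3.24 and 7.15 in JP2CR TAC. No TAC library reached a sham library of its genotype, and JP2CR sham 4 was the highest of all. The changes were -2.05 ± 0.33 and -1.75 ± 0.32 (edgeR adjusted p = 8.59e-05 and 0.000317). Kcng2, the other abundant silent subunit, stood at 113, 138, 118 and 125 CPM in the WT sham libraries 1 to 4 and 126, 94.3, 111 and 101 in WT TAC. In JP2CR mice Kcng2 had 109, 119, 108 and 116 CPM in JP2CR sham and 109, 92.9, 116 and 105 in JP2CR TAC. The groups overlapped, and it did not pass in WT (-0.20 ± 0.09) or in JP2CR (-0.09 ± 0.09). Without WT sham 1 or without WT TAC 1 its WT change passed, at -0.24 to -0.28 (edgeR adjusted p = 0.0109 to 0.0472).

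Kcna5, an ultrarapid delayed rectifier, stood at 25.6, 26.8, 25.8 and 27.2 CPM in the WT sham libraries 1 to 4 and 27.1, 16.3, 23 and 19.6 in WT TAC. In JP2CR mice Kcna5 had 21.6, 22.2, 24.4 and 37.3 CPM in JP2CR sham and 19.4, 38.6, 30.7 and 39 in JP2CR TAC. Its changes had opposite signs in the genotypes (-0.30 ± 0.20 and 0.29 ± 0.20), the groups overlapped and neither passed. Without JP2CR sham 4 or without JP2CR TAC 1 the JP2CR change passed at 0.47 to 0.50 (edgeR adjusted p = 0.0382 to 0.048), and the difference between genotypes was not called (0.59 ± 0.28, edgeR adjusted p = 0.494). Kcna7, a Kv gene of striated muscle, had changes of -0.37 ± 0.09 in WT and -0.26 ± 0.10 in JP2CR (edgeR adjusted p = 0.00365 and 0.0356). The JP2CR call was lost without any one of JP2CR sham 2, JP2CR sham 3, JP2CR TAC 2 or JP2CR TAC 3 (-0.17 to -0.24, edgeR adjusted p = 0.0753 to 0.167). It was also lost without the 3 libraries with Xist (edgeR adjusted p = 0.092).

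**Figure D3:**
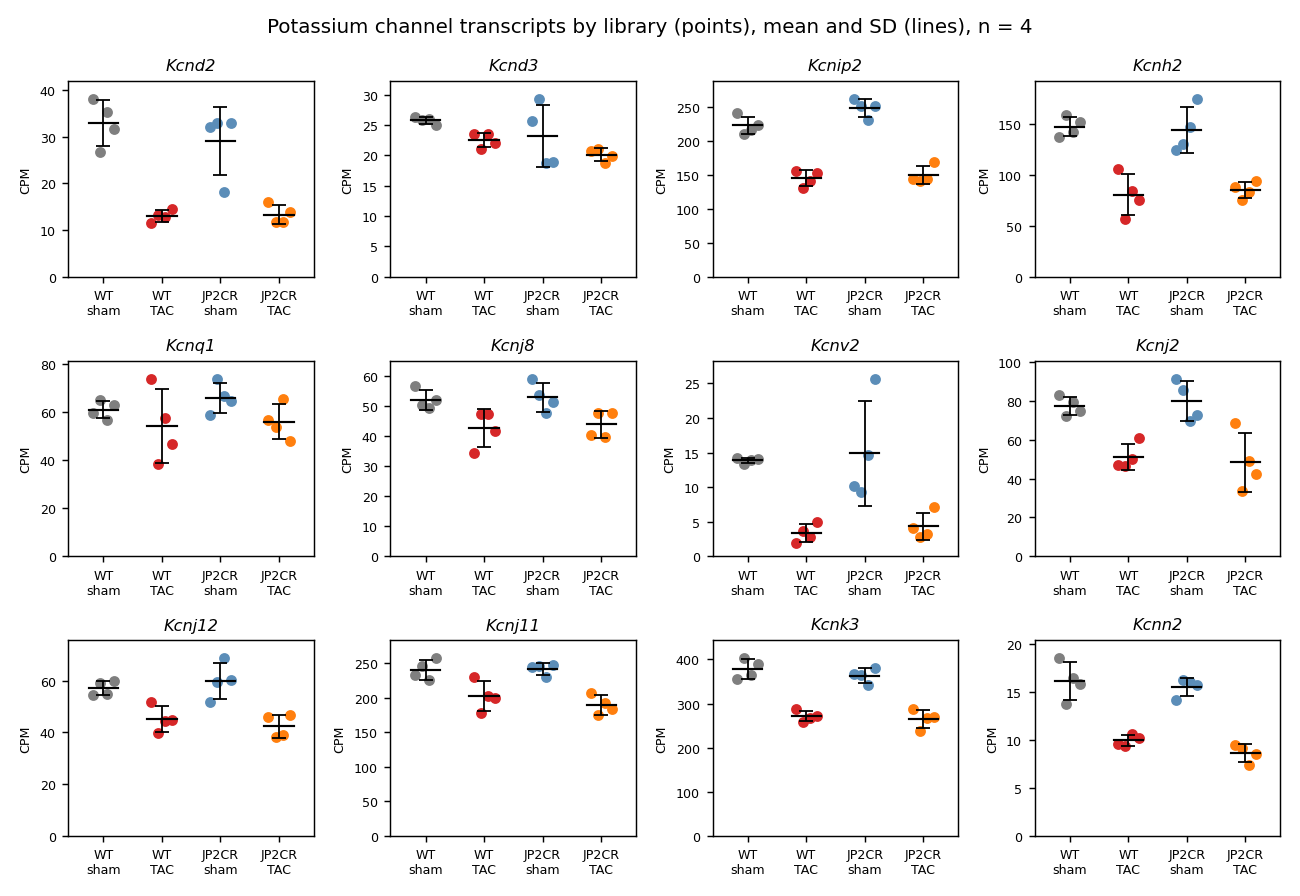
CPM (vertical axes, from 0) of 12 Kcn genes of heart muscle in each library (points in replicate order), with the mean and SD of each group (n = 4). Kcnd2 runs from 26.7 to 38 CPM in WT sham and from 11.6 to 14.6 in WT TAC, while the Kcnq1 groups overlap.

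The genes of the acetylcholine-gated channel fell furthest among the 10 members with the highest level per kb. Kcnj3 and Kcnj5 encode the subunits that join into this channel, which slows the heartbeat under vagal drive and is known chiefly from atrium and pacemaker tissue. The 250 bases before the RefSeq start of each are shown because both fell and did so unequally in WT. The Kcnj3 window is chr2:55435720-55435969, plus strand, which lies within an exon of the lincRNA Gm26794 on the opposite strand and inside the RefSeq span of Kcnj3, which begins further upstream. The Kcnj5 window is chr9:32344345-32344594, minus strand, whose last 6 bases are exonic in GENCODE, and capitals mark GC boxes.
Kcnj3: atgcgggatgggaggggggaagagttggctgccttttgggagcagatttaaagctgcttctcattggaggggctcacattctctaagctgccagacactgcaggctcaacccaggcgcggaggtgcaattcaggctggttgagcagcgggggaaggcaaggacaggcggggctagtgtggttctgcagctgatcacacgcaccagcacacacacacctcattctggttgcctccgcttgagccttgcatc
Kcnj5: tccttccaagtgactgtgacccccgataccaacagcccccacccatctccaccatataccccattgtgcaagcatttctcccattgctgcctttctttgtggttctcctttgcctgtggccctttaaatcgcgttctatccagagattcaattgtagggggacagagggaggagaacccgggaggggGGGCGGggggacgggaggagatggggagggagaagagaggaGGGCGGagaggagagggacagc
The Kcnj5 window holds GC boxes and the Kcnj3 window holds none. Whether this bears on the unequal fall was not tested.

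Kcnj3 stood at 187, 177, 184 and 169 CPM in the WT sham libraries 1 to 4 and 50.7, 32.8, 40.9 and 47.2 in WT TAC. In JP2CR mice Kcnj3 had 166, 157, 176 and 123 CPM in JP2CR sham and 79.9, 57.3, 61 and 75.7 in JP2CR TAC. No TAC library reached a sham library, and all JP2CR TAC libraries lay above all WT TAC libraries. Its log2 fold change was -2.07 ± 0.13 in WT and -1.19 ± 0.13 in JP2CR (edgeR adjusted p = 4.47e-09 and 1.82e-06), a level 4.18 and 2.27 times lower. Kcnj5 stood at 179, 205, 190 and 195 CPM in the WT sham libraries 1 to 4 and 100, 74.4, 83.6 and 83.7 in WT TAC. In JP2CR mice Kcnj5 had 173, 189, 208 and 148 CPM in JP2CR sham and 81.7, 87.9, 86.3 and 105 in JP2CR TAC. It did not overlap between sham and TAC. The changes were -1.17 ± 0.10 and -0.995 ± 0.10 (edgeR adjusted p = 1.16e-07 and 1.07e-06). The log2 ratio of Kcnj3 to Kcnj5 differed between TAC and sham by -0.905 in WT and by -0.196 in JP2CR (two-sided exact permutation p = 0.0286 and 0.229, adjusted p = 0.0714 and 0.327). Exons of Kcnj3 share 31.1% of their length with Gm26794 on the other strand, and the strand setting of the counting is not given in the sources used here, so reads of the pair cannot be told apart.

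Most atrial markers were also called lower in WT TAC, and fewer were in JP2CR TAC. The difference between the TAC responses of the genotypes was not called for any of them. Of 13 atrial markers tested, 10 fell and 1 (Nppa, which ventricles also make) rose in WT TAC, and 5 fell in JP2CR TAC. Of all tested genes, 20.8% fell and 21.1% rose in WT, and 20.7% fell in JP2CR. Myl7, the atrial myosin light chain, stood at 451, 762, 604 and 711 CPM in the WT sham libraries 1 to 4 and 60.8, 7.77, 36.9 and 10.5 in WT TAC. In JP2CR mice Myl7 had 530, 299, 803 and 0.941 CPM in JP2CR sham and 85.5, 103, 95.8 and 174 in JP2CR TAC. Its change was called in WT (-4.46 ± 0.90, edgeR adjusted p = 0.000698) and not in JP2CR (-1.84 ± 0.79, edgeR adjusted p = 0.0728). JP2CR sham 4 had the lowest Myl7 level of all 16 libraries, and its Kcnj3 and Kcnj5 levels of 123 and 148 CPM were the lowest among sham libraries and above every TAC library. The atrial sum ran from 5030 to 6920 CPM in WT sham, 5860 to 9660 in WT TAC, 1320 to 8590 in JP2CR sham and 6210 to 7520 in JP2CR TAC, and Nppa was a large share of it. Conduction system markers fell in 6 of 7 tested in WT and 4 of 7 in JP2CR, with sums of 87.6 to 133 and 79.4 to 103 CPM in the sham groups and 48.1 to 59.9 and 51.7 to 78.7 CPM in the TAC groups. Their part in the levels of Kcnj3 and Kcnj5 was not tested. In such bulk samples fewer cells of a type and less RNA per cell cannot be told apart.

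Kv genes best known from axons fell strongly from low levels. Kcna1 and Kcna2 encode axonal Kv subunits and Kcna6 another member of that subfamily. Kcna1 stood at 8.56, 10.5, 9.77 and 9.35 CPM in the WT sham libraries 1 to 4 and 1.01, 2.32, 0.754 and 1.36 in WT TAC. In JP2CR mice Kcna1 had 7.42, 9.7, 5.92 and 7.84 CPM in JP2CR sham and 2.25, 2.5, 2.47 and 3.61 in JP2CR TAC. No TAC library reached a sham library, and WT TAC 3 was the lowest. The changes were -2.77 ± 0.24 and -1.49 ± 0.22 (edgeR adjusted p = 1.14e-07 and 4.79e-05). Kcna2 stood at 7.55, 8.88, 8.14 and 7.76 CPM in the WT sham libraries 1 to 4 and 2.79, 3.72, 3.44 and 3.77 in WT TAC. In JP2CR mice Kcna2 had 7.84, 8.78, 4.81 and 4.29 CPM in JP2CR sham and 3.22, 2.5, 3.17 and 3.88 in JP2CR TAC. The groups did not overlap, though JP2CR sham 3 and 4 came near the TAC values. The changes were -1.24 ± 0.20 and -1.002 ± 0.21. Kcna6 stood at 3.02, 5.22, 2.77 and 5.68 CPM in the WT sham libraries 1 to 4 and 1.24, 0.863, 1.09 and 1.2 in WT TAC. In JP2CR mice Kcna6 had 3.35, 3.75, 4.87 and 3.14 CPM in JP2CR sham and 0.599, 1.29, 1.08 and 1.87 in JP2CR TAC. The changes were -1.94 ± 0.30 and -1.64 ± 0.30. It did not overlap between sham and TAC in either genotype, and its exons share 39.6% of their length with Gm26673 on the other strand. All these changes passed the edgeR test.

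Markers of nerve and Schwann cells moved in the same libraries. Of 7 such markers tested, 6 fell in WT TAC and 5 in JP2CR TAC, where 20.8% and 20.7% of all tested genes fell. Their sum over 10 genes ran from 35.1 to 46.2 CPM in WT sham, 15 to 18.3 in WT TAC, 28.4 to 42.6 in JP2CR sham and 18.7 to 24.6 in JP2CR TAC. Dbh, the enzyme that makes noradrenaline, changed by -2.37 ± 0.31 and -1.96 ± 0.30, and Th was near 0 in every library. Their part in the fall of Kcna1, Kcna2 and Kcna6 was not tested.

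**Figure D4:**
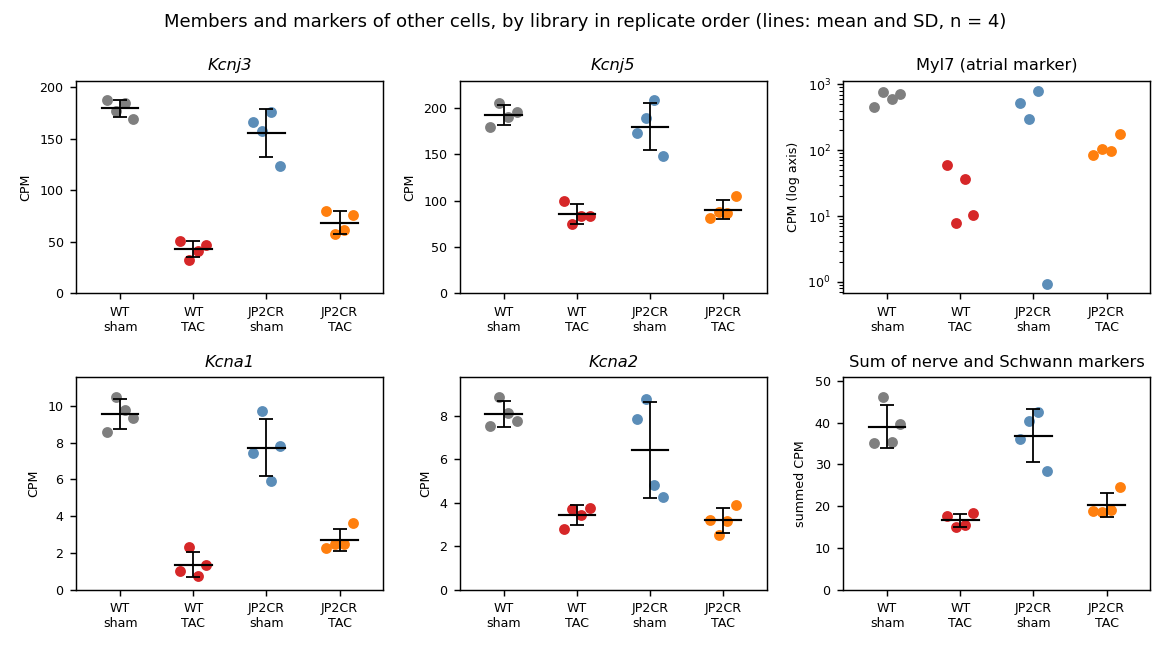
Library values (points, in replicate order) of Kcnj3 and Kcnj5 beside the atrial marker Myl7 (log axis), and of Kcna1 and Kcna2 beside the sum of nerve and Schwann cell markers, all in CPM, with mean and SD of the groups on the linear axes. Kcnj3 runs from 169 to 187 CPM in WT sham and from 32.8 to 50.7 in WT TAC, and Myl7 is lowest in JP2CR sham 4, at 0.941 CPM.

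Inward rectifiers of the resting potential fell in both genotypes. Kcnj2 and Kcnj12 carry the background inward rectifier current of the ventricle. Kcnj2 stood at 83.2, 72.4, 79.6 and 74.7 CPM in the WT sham libraries 1 to 4 and 47, 46.5, 50.2 and 61.2 in WT TAC. In JP2CR mice Kcnj2 had 91.6, 85.6, 69.9 and 72.6 CPM in JP2CR sham and 68.9, 33.5, 49 and 42.2 in JP2CR TAC. No TAC library reached a sham library, and JP2CR TAC 2 was the lowest. The changes were -0.60 ± 0.16 and -0.72 ± 0.16 (edgeR adjusted p = 0.00498 and 0.0013). Kcnj12 stood at 54.4, 59.2, 54.9 and 59.8 CPM in the WT sham libraries 1 to 4 and 51.9, 39.6, 44.2 and 44.6 in WT TAC. In JP2CR mice Kcnj12 had 51.6, 59.3, 68.7 and 60.2 CPM in JP2CR sham and 45.8, 38.3, 38.9 and 46.7 in JP2CR TAC. Its groups did not overlap. The changes were -0.34 ± 0.09 and -0.50 ± 0.09 (edgeR adjusted p = 0.00635 and 0.000379). The log2 ratio of Kcnj2 to Kcnj12 differed between TAC and sham by -0.258 in WT and -0.267 in JP2CR and did not pass (two-sided exact permutation p = 0.143 and 0.343).

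The ATP-sensitive channel genes also fell, by small steps. Kcnj11 stood at 232, 246, 225 and 257 CPM in the WT sham libraries 1 to 4 and 229, 177, 202 and 200 in WT TAC. In JP2CR mice Kcnj11 had 244, 245, 229 and 247 CPM in JP2CR sham and 207, 174, 192 and 184 in JP2CR TAC. WT TAC 1 lay among the WT sham values, and the JP2CR groups did not overlap. The changes were -0.25 ± 0.07 and -0.35 ± 0.07 (edgeR adjusted p = 0.00874 and 0.000725). Kcnj8, the pore gene of this channel in vascular smooth muscle and pericytes, stood at 56.4, 50.2, 49.1 and 52 CPM in the WT sham libraries 1 to 4 and 34.2, 47.3, 47.2 and 41.5 in WT TAC. In JP2CR mice Kcnj8 had 59, 53.6, 47.6 and 51.1 CPM in JP2CR sham and 40.3, 47.7, 39.5 and 47.7 in JP2CR TAC. The changes were -0.29 ± 0.10 and -0.27 ± 0.10 (edgeR adjusted p = 0.0255 and 0.0338). The WT call of Kcnj8 was lost without any one of WT sham 1, WT sham 4, WT TAC 1 or WT TAC 4 (-0.19 to -0.29, edgeR adjusted p = 0.0518 to 0.0907). Its JP2CR call was lost without any one of WT sham 4, JP2CR sham 1, 2 or 4, or JP2CR TAC 1 or 3 (-0.20 to -0.28, edgeR adjusted p = 0.0505 to 0.133). It was also lost without WT TAC 3 and JP2CR TAC 3 together (-0.23, edgeR adjusted p = 0.11). Abcc9 and Abcc8, the sulfonylurea receptors that complete this channel, changed by -0.55 ± 0.09 and -0.56 ± 0.08 in WT and by -0.64 ± 0.09 and -0.58 ± 0.08 in JP2CR, all called. Of 12 smooth muscle and pericyte markers, 6 fell and 2 rose in WT, where 20.8% of all tested genes fell and 21.1% rose, and 4 fell and 3 rose in JP2CR, where both shares were 20.7%. The sum of the list, of which the muscle filament gene Des is a large share, ran from 2720 to 3010 CPM in WT sham, 4070 to 4280 in WT TAC, 2590 to 3270 in JP2CR sham and 3590 to 3930 in JP2CR TAC. The smooth muscle myosin Myh11 changed by -1.24 ± 0.17 and -0.88 ± 0.17. The pericyte genes Rgs5, Pdgfrb and Notch3 were called in neither genotype (0.06 ± 0.11, 0.08 ± 0.07 and 0.08 ± 0.09 in WT), and Cspg4, another, rose (0.41 ± 0.09 and 0.37 ± 0.09). Their part in Kcnj8 and Abcc9 was not tested.

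Of the two-pore-domain channels, 1 of 5 tested members was called in each genotype. Of all tested genes, 41.9% were called in WT and 41.5% in JP2CR. Kcnk3 stood at 355, 403, 365 and 390 CPM in the WT sham libraries 1 to 4 and 287, 259, 268 and 272 in WT TAC. In JP2CR mice Kcnk3 had 367, 364, 342 and 381 CPM in JP2CR sham and 287, 237, 267 and 269 in JP2CR TAC. No TAC library reached a sham library. The changes were -0.48 ± 0.06 and -0.46 ± 0.06 (edgeR adjusted p = 5.48e-06 and 1.13e-05). Kcnk2, a channel that responds to stretch and to lipids, stood at 5.2, 3.97, 4.48 and 4.23 CPM in the WT sham libraries 1 to 4 and 3.72, 7.04, 5.61 and 5.3 in WT TAC. In JP2CR mice Kcnk2 had 3.85, 3.57, 3.52 and 1.67 CPM in JP2CR sham and 3.07, 5.32, 4.02 and 3.28 in JP2CR TAC. The groups overlapped, JP2CR sham 4 was the lowest, and the changes of 0.29 ± 0.22 and 0.28 ± 0.24 did not pass. Kcnk5, Kcnk6 and Kcnk13 were not called, with log2 fold changes between -0.62 and 0.87 over both genotypes.

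Among the channels gated by calcium, the small-conductance genes went in different directions. Kcnn2, expressed in heart muscle, stood at 18.5, 13.7, 16.4 and 15.8 CPM in the WT sham libraries 1 to 4 and 9.53, 9.36, 10.6 and 10.2 in WT TAC. In JP2CR mice Kcnn2 had 14.1, 16.2, 16 and 15.7 CPM in JP2CR sham and 9.5, 9.12, 7.34 and 8.56 in JP2CR TAC. Its groups did not overlap. The changes were -0.69 ± 0.10 and -0.84 ± 0.10 (edgeR adjusted p = 3.1e-05 and 6.19e-06). Kcnn1 changed by -0.19 ± 0.09 in WT, not called, and by -0.29 ± 0.09 in JP2CR (edgeR adjusted p = 0.107 and 0.0166). Its JP2CR call was lost without JP2CR sham 3 or without JP2CR TAC 1 (-0.21 to -0.23, edgeR adjusted p = 0.0599 to 0.0678) and without the 3 libraries with Xist (edgeR adjusted p = 0.0691). Kcnn3, the third of them, rose and stood at 1.26, 1.43, 1.79 and 1.46 CPM in the WT sham libraries 1 to 4 and 2.01, 2.92, 2.26 and 3.05 in WT TAC. In JP2CR mice Kcnn3 had 1.5, 1.46, 1.67 and 0.732 CPM in JP2CR sham and 2.99, 3.15, 2.7 and 1.87 in JP2CR TAC. No sham library reached a TAC library of its genotype. The changes were 0.79 ± 0.24 and 0.95 ± 0.24 (edgeR adjusted p = 0.0119 and 0.00422).

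The large-conductance channel had few reads in its genes, 0 to 23 for Kcnma1 and 25 to 73 for Kcnmb1 by library. Kcnma1, its pore gene, stood at 1.59, 0.745, 0.733 and 0.901 CPM in the WT sham libraries 1 to 4 and 0.775, 0.996, 0.754 and 1.45 in WT TAC. In JP2CR mice Kcnma1 had 0.927, 0.824, 1.42 and 0 CPM in JP2CR sham and 1.2, 1.05, 1 and 0.869 in JP2CR TAC. The groups overlapped, and the changes of 0.02 ± 0.45 and 0.26 ± 0.46 did not pass. Kcnmb1, its smooth muscle subunit, stood at 6.13, 3.48, 3.66 and 3.88 CPM in the WT sham libraries 1 to 4 and 2.01, 3.25, 3.44 and 2.65 in WT TAC. In JP2CR mice Kcnmb1 had 4.28, 3.2, 4.07 and 2.61 CPM in JP2CR sham and 3.44, 2.5, 2.93 and 3.61 in JP2CR TAC. It was called lower in WT (-0.58 ± 0.22, edgeR adjusted p = 0.0408) and not in JP2CR (-0.20 ± 0.22). The WT call was lost without any one of WT sham 1, WT sham 4, WT TAC 1 or WT TAC 4 (-0.37 to -0.63, edgeR adjusted p = 0.0512 to 0.174), and WT sham 1 also had the highest Myh11 level, at 164 CPM.

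The highest value of any member that rose, in any library, was 8.04 CPM. Kcnc1, a fast-opening Kv subunit of neurons, stood at 0.503, 0.683, 0.489 and 0.485 CPM in the WT sham libraries 1 to 4 and 1.01, 2.39, 1.42 and 1.93 in WT TAC. In JP2CR mice Kcnc1 had 0.784, 0.732, 1.05 and 0 CPM in JP2CR sham and 1.12, 1.45, 1.54 and 1.74 in JP2CR TAC. Sham and TAC libraries did not overlap, and no read was counted in JP2CR sham 4. The changes were 1.62 ± 0.42 and 1.08 ± 0.42 (edgeR adjusted p = 0.00476 and 0.0466). The JP2CR call was lost without any one of 12 libraries (WT sham 1 to 4, WT TAC 3 and 4, JP2CR sham 1, 2 and 4, and JP2CR TAC 2 to 4), at 0.76 to 1.16 with edgeR adjusted p = 0.0546 to 0.103. Kcnj14, an inward rectifier of the same subfamily as Kcnj2, stood at 2.35, 2.98, 2.61 and 2.84 CPM in the WT sham libraries 1 to 4 and 6.51, 6.51, 8.04 and 3.77 in WT TAC. In JP2CR mice Kcnj14 had 2.21, 1.37, 1.3 and 0.837 CPM in JP2CR sham and 1.72, 6.7, 4.48 and 5.41 in JP2CR TAC. In WT the groups did not overlap, and in JP2CR the TAC library 1 lay among the sham values. The changes were 1.19 ± 0.31 and 1.64 ± 0.35 (edgeR adjusted p = 0.00504 and 0.00131). The JP2CR call of Kcnj14 was lost without the 3 libraries with Xist and WT TAC 3 and JP2CR TAC 3 together (1.19, edgeR adjusted p = 0.0951).

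Kcnt2, a sodium-activated channel, stood at 2.77, 2.17, 3.09 and 2.22 CPM in the WT sham libraries 1 to 4 and 3.02, 3.85, 4.11 and 4.26 in WT TAC. In JP2CR mice Kcnt2 had 2.14, 1.74, 2.1 and 1.99 CPM in JP2CR sham and 4.34, 3.87, 5.02 and 4.55 in JP2CR TAC. WT TAC 1 lay among the WT sham values, and the JP2CR groups did not overlap. The changes were 0.58 ± 0.16 and 1.15 ± 0.16 (edgeR adjusted p = 0.0071 and 3.02e-05). Kcnq1ot1, an imprinted noncoding RNA transcribed against Kcnq1, stood at 2.01, 1.99, 2.85 and 2.43 CPM in the WT sham libraries 1 to 4 and 4.8, 3.78, 4.02 and 3.29 in WT TAC. In JP2CR mice Kcnq1ot1 had 2.71, 3.2, 2.47 and 2.2 CPM in JP2CR sham and 4.49, 4.03, 4.02 and 2.94 in JP2CR TAC. It changed by 0.78 ± 0.18 and 0.54 ± 0.18 (edgeR adjusted p = 0.00208 and 0.0222). The JP2CR call was lost without any one of JP2CR sham 3, JP2CR sham 4 or JP2CR TAC 1 (0.46 to 0.51, edgeR adjusted p = 0.055 to 0.069), without the 3 libraries with Xist (edgeR adjusted p = 0.0766), and without WT TAC 3 and JP2CR TAC 3 (edgeR adjusted p = 0.0613). Kcnq1ot1 (chr7:143213111-143296547, GRCm38.p6) lies inside the body of Kcnq1 (chr7:143106877-143427050), so unspliced reads of the 2 genes cannot be told apart without strand. Kcne4, an accessory subunit that dampens Kcnq1 channels, stood at 5.37, 5.46, 4.64 and 3.26 CPM in the WT sham libraries 1 to 4 and 5.11, 6.11, 5.11 and 5.46 in WT TAC. In JP2CR mice Kcne4 had 3.92, 3.11, 4.87 and 3.97 CPM in JP2CR sham and 7.63, 7.18, 7.65 and 6.35 in JP2CR TAC. It rose in JP2CR (0.84 ± 0.16, edgeR adjusted p = 0.000455), with no overlap, and did not pass in WT (0.22 ± 0.16), and the difference between genotypes was not called (0.62 ± 0.23, edgeR adjusted p = 0.318).

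Among the accessory subunits, Kcnab1, a cytoplasmic beta subunit of Kv channels, stood at 5.29, 2.79, 4.32 and 2.36 CPM in the WT sham libraries 1 to 4 and 2.01, 2.12, 1.93 and 1.61 in WT TAC. In JP2CR mice Kcnab1 had 4.06, 3.57, 2.22 and 1.99 CPM in JP2CR sham and 1.72, 2.26, 1.7 and 2.21 in JP2CR TAC. It fell in WT (-0.92 ± 0.27, edgeR adjusted p = 0.0106) with no overlap and did not pass in JP2CR (-0.59 ± 0.27, edgeR adjusted p = 0.0945), where the sham libraries 3 and 4 lay among the TAC values. Without the 3 libraries with Xist the JP2CR change was -1.01 and passed (edgeR adjusted p = 0.0165). The 20 tested members called in neither genotype included Kcna4, Kcna5, Kcnab2, Kcnc2, Kcnd1, Kcnd3, Kcnd3os, Kcng2, Kcnh1, Kcnj15, Kcnk13, Kcnk2, Kcnk5, Kcnk6, Kcnma1, Kcnn4, Kcnq1, Kcnq5 and Kcnt1. Their log2 fold changes ran from -0.62 ± 0.32 (Kcnk5) to 1.32 ± 0.77 (Kcnq5) in WT and from -0.55 ± 0.41 (Kcnt1) to 1.01 ± 0.58 (Kcnh1) in JP2CR. In WT the widest standard errors were those of Kcnq5, Kcnh1 and Kcnn4, whose mean levels were 0.848, 0.483 and 0.683 CPM.

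**Figure D5:**
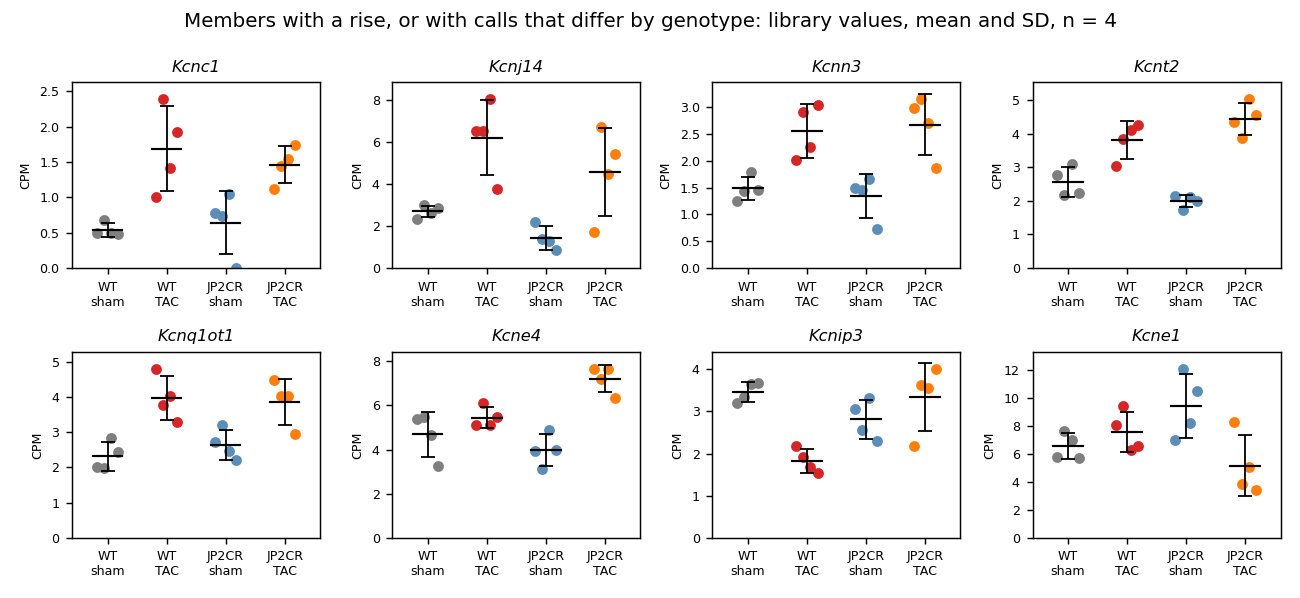
CPM (vertical axes, from 0) in each library of the 6 members that rose in at least 1 genotype and of Kcnip3 and Kcne1, whose calls differed by genotype, with group mean and SD (n = 4). Kcne4 runs from 6.35 to 7.65 CPM in JP2CR TAC, above the 3.11 to 4.87 of JP2CR sham.

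Few members were called between the genotypes. For the difference between the TAC responses of JP2CR and WT, edgeR called 0 of 49 members, where 0.0887% of all tested genes were called higher and 0.0296% lower, 0.118% in all. At an unadjusted p under 0.05 there were 6 members (12.2%; all tested genes, 10.3%), and DESeq2 called 2, Kcnj3 and Kcna1. Kcnj3 fell by less in JP2CR than in WT, by 0.88 ± 0.18 on the log2 scale, just short of the threshold (edgeR adjusted p = 0.0549). It passed without any one of WT TAC 1, JP2CR sham 3, JP2CR sham 4 or JP2CR TAC 2 (0.80 to 0.97, edgeR adjusted p = 0.0198 to 0.0496), and without the 3 libraries with Xist (0.79, edgeR adjusted p = 0.0246). For Kcna1 the difference was 1.28 ± 0.34 (edgeR adjusted p = 0.137). Kcnip3, a calcium-binding relative of Kcnip2, stood at 3.19, 3.35, 3.66 and 3.67 CPM in the WT sham libraries 1 to 4 and 2.17, 1.93, 1.68 and 1.53 in WT TAC. In JP2CR mice Kcnip3 had 3.07, 2.56, 3.33 and 2.3 CPM in JP2CR sham and 2.17, 3.63, 3.55 and 4.01 in JP2CR TAC. It fell in WT (-0.92 ± 0.20, edgeR adjusted p = 0.00103) and did not pass in JP2CR (0.23 ± 0.19), where only TAC library 1 came level with a WT TAC library, WT TAC 1. The difference was 1.15 ± 0.27 and was not called (edgeR adjusted p = 0.101), and it passed without JP2CR sham 3 or without JP2CR TAC 1 (1.25 to 1.31, edgeR adjusted p = 0.0191 to 0.0455). Without JP2CR TAC 1 alone, 1 member, Kcne1, was called on the lower side of this comparison.

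Among sham mice, edgeR called no member different between genotypes, where 0.0961% of all tested genes were called lower and 0% higher, 5 members had an unadjusted p under 0.05 (10.2%; all tested genes, 7.97%), and DESeq2 called 0. The members with the smallest p were Kcnq5, a Kv gene of the M-current family (2.05 ± 0.72), Kcnj14 (-0.88 ± 0.37) and Kcnip2 (0.16 ± 0.07), with edgeR adjusted p = 0.427, 0.546 and 0.554. Kcnq5 stood at 0.503, 0.31, 0.0814 and 0.0693 CPM in the WT sham libraries 1 to 4 and 0.62, 0.73, 0.335 and 0.723 in WT TAC. In JP2CR mice Kcnq5 had 0.285, 1.1, 0.925 and 1.99 CPM in JP2CR sham and 3.37, 0.807, 0.927 and 0.802 in JP2CR TAC. JP2CR TAC 1 stood far above the rest of its group. The JP2CR sham libraries lay below all WT sham libraries for 3 members, Kcnj14, Kcnk2 and Kcnt2 (6.12% of those tested, where 2.78% of all tested genes did so), and above them for 0 (all tested genes, 1.98%).

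Among TAC mice, 1 member was called between genotypes, Kcnj3, which was 0.68 ± 0.13 higher in JP2CR on the log2 scale (edgeR adjusted p = 0.0313), where 0.362% of all tested genes were called higher and 0.288% lower, 0.651% in all. The call was lost without any one of WT TAC 2, WT TAC 3, WT TAC 4, JP2CR TAC 1, JP2CR TAC 3 or JP2CR TAC 4 (0.57 to 0.73, edgeR adjusted p = 0.0551 to 0.112), and without WT TAC 3 and JP2CR TAC 3 together (0.71, edgeR adjusted p = 0.215). In all, 9 members had an unadjusted p under 0.05 (18.4%; all tested genes, 12.9%), and DESeq2 called 3 higher, Kcnj3, Kcna1 and Kcnip3. Kcnip3 had 0.87 ± 0.20 and Kcna1 0.96 ± 0.27 (edgeR adjusted p = 0.0527 and 0.121), and Kcnip3 passed without any one of WT TAC 1, JP2CR sham 3, JP2CR sham 4 or JP2CR TAC 1 (0.87 to 1.03, edgeR adjusted p = 0.0129 to 0.0451). All JP2CR TAC libraries lay above all WT TAC libraries for 5 members, Kcnj3, Kcnip3, Kcne4, Kcnq5 and Kcnt1 (10.2%; all tested genes, 3.96%), and below them for 1, Kcnd3 (2.04%; all tested genes, 4.13%). Near ties decided this for Kcnip3, at 2.17 CPM in both JP2CR TAC 1 and WT TAC 1. The same held for Kcnt1 (0.927 in JP2CR TAC 3 against 0.922 in WT TAC 3) and Kcnd3 (21.1 in JP2CR TAC 2 and in WT TAC 2). Marker lists of other cells differed too. The sums did not overlap for macrophage markers (484 to 593 CPM in JP2CR TAC against 429 to 475 in WT TAC, with Cd163 called higher). Nor did they for nerve and Schwann cell markers (18.7 to 24.6 against 15 to 18.3). The smooth muscle and pericyte sum, of which Des is a large share, did not overlap either. It was lower in JP2CR TAC (3590 to 3930 against 4070 to 4280). Sums overlapped for conduction (51.7 to 78.7 against 48.1 to 59.9), adipocyte (3.39 to 104 against 0.797 to 10.9, with Retn called higher) and lymphocyte markers (8.62 to 74.9 against 5.38 to 11.2). The atrial sum, of which Nppa is a large share, also overlapped (6210 to 7520 against 5860 to 9660). Several single atrial markers did not overlap and were higher in JP2CR TAC. They were Myl7 (85.5 to 174 against 7.77 to 60.8), Myl4 (135 to 273 against 13.2 to 124), Sln (29 to 58.3 against 2.25 to 22.2), Stard10, Dkk3 and Sbk2. The other atrial markers overlapped, and edgeR called no atrial marker between genotypes in TAC. Their part in the levels of Kcnj3, Kcna1 and Kcnip3 was not tested.

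Genes that work with these channels without being Kcn genes were counted from a list of their own. Of 19 partners and regulators, 14 were tested, and 6 fell and 2 rose in WT TAC, with the same counts in JP2CR TAC. Of all tested genes, 20.8% fell and 21.1% rose in WT, and both shares were 20.7% in JP2CR. Beside Abcc8 and Abcc9, Hcn4, the pacemaker channel, changed by -1.14 ± 0.23 and -0.58 ± 0.22, Hcn2 by -0.53 ± 0.09 and -0.56 ± 0.09, and Amigo1, an accessory protein of Kv channels, by -0.35 ± 0.07 and -0.59 ± 0.07, all called lower. Akap9, the scaffold of the Kcnq1 channel, was higher in both (0.44 ± 0.09 and 0.39 ± 0.09). Irx4, a transcription factor of the ventricle, rose in WT (0.29 ± 0.09), fell in JP2CR (-0.27 ± 0.09) and was lower in JP2CR TAC than in WT TAC (-0.58 ± 0.09, edgeR adjusted p = 0.0103). The difference between the TAC changes of the genotypes was not called for Irx4 or for any other gene of this list.

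The authors' deposited table of DESeq2 comparisons gave 5 members higher and 23 lower with TAC in WT, which included all 26 called here in the same direction and 2 more, Kcna5 among them. For JP2CR it gave 4 higher and 18 lower, all 22 among those called here, without Kcna7, Kcnq1ot1, Kcnn1 and Kcnc1.

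A start window was available for 72 of the 98 members and 34 of the 49 tested ones. The 250 bases before the start were searched on both strands for short motifs. The GC box, GGGCGG, was present in 5 of the 11 members that fell in both genotypes (45.5%), in 7 of 14 called in neither (50%) and in 32.9% of all 27025 windows. The TEAD motif CATTCC was in 0 of the 11 members, in 4 of the 14 and in 12.6% of all windows. The E-box CACGTG was in 1 of the 11 (Kcnj2), in 1 of the 14 and in 6.05% of all windows. Neither the GATA motif, written AGATAA, nor the TATA box, which was searched as TATAAA, was in any of the 34, and they were in 10.3% and 13% of all windows. The NKX2-5 motif CACTTAA was in 1 of the 34 (Kcnd3) and in 2.1% of all windows, and the cAMP response motif TGACGT was in 3 of the 34 and in 6.56%. No listed motif shares its letters in full with another. These matches are letters in a short window and say nothing of whether a factor binds.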

How the data were processed

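Whole-ventricle RNA from 16 mice was sequenced in stranded poly(A) libraries, per the labels' protocols. The authors deposited a table of raw read counts per gene for each library, beside the log2 fold changes, adjusted p-values and other statistics of their own DESeq2 comparisons, which were used only where the authors' table is named. FastQC 1.0.0, STAR 2.5.0b, Picard 1.128, bedtools 2.17.0, Cufflinks 2.2.1, DESeq2 1.6.3 and the mm10 build are named in the submitters' processing notes. Which tool counted reads, and with which strand setting, is not given in the sources used here.

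Counts were fitted with edgeR 4.0.16 (R 4.3.3, TMM factors, filterByExpr, a mean per group, quasi-likelihood F test) on the whole table of 24421 rows, and Benjamini-Hochberg adjustment ran over the 13522 genes that passed the filter. 5817 rows had no count. A member is called where adjusted p is under 0.05, and CPM values use TMM-scaled library sizes. Fold changes are log2 with the standard error of the fit. Exon lengths came from GENCODE vM21 and positions and start windows from RefSeq (GRCm38.p6), with all 98 members matched to both for length and position.

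The same fit was tested on simulated data with the means of these libraries. For TAC in WT it recovered 79.1%, 92.5% and 98.5% of genes changed 1.5-fold, 2-fold and 4-fold, with 12 false calls among 13522 genes, and for the interaction 52.2%, 91% and 98.5%, with 9 false calls. The changed genes, 67, 67 and 66 of them, all had a mean of at least 2 CPM. The recovery shares therefore do not cover members below that level. Far fewer genes were changed than the 41.9% called with TAC in WT.

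The members and lists were chosen with earlier results of these data known. Per-library values are given for members known from heart, for up to 6 called members with the largest rise and fall and no overlap in each TAC comparison, for the 3 with the smallest p in each of the interaction and genotype comparisons, and for the 10 with the highest level per kb. The fits without the libraries with Xist or without WT TAC 3 and JP2CR TAC 3, and the ratio tests, were added after the data were seen, unlike the fits that leave out 1 library each. Nothing in the labels says that equal replicate numbers share a litter or day, so they were not used as pairs. A few genes are not reported here, though the counts of members include them. Proteins were not analysed here.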

Additional observations from a re-analysis of the deposited data

Results flagged for a closer look

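Of 132 groups of 4 libraries examined (33 members in 4 groups), 8 held 1 library far from the other 3 of its group. Chance alone flags about 1 in 20 groups. Kcna4 was at 5.76 CPM in JP2CR TAC 1, with the others at 2.82 to 3.07, and Kcnq5 was at 3.37 CPM in the same library, with the others at 0.802 to 0.927. Kcnd2 was at 18.1 CPM in JP2CR sham 3, with the others at 32.1 to 32.9, and Kcnj11 was at 229 CPM there, with the others at 244 to 247. Kcnk2 was at 1.67 CPM in JP2CR sham 4, with the others at 3.52 to 3.85. Kcnip2 was at 169 CPM in JP2CR TAC 4, with the others at 141 to 144. Kcnmb1 was at 6.13 CPM in WT sham 1, with the others at 3.48 to 3.88, and Kcnc1 was at 0.683 CPM in WT sham 2, with the others at 0.485 to 0.503. JP2CR sham 3, JP2CR sham 4 and JP2CR TAC 4 are the libraries with Xist.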

How the results depend on the processing

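The counts of members called with TAC stayed within 1.5 times the main count under every alternative run: 5 higher in WT throughout, 19 to 24 lower in WT, 4 to 7 higher in JP2CR and 17 to 21 lower in JP2CR. No named log2 fold change of a called member reversed. Of the single-member values recomputed under the alternatives chosen at the outset, 1741 stayed on their side of the threshold, 52 lost the call and 23 gained one, and under added ones these were 224, 19 and 6. The genotype results rested on few calls. For JP2CR against WT in sham no member was called in any run. For the interaction the count of members called higher was 0. It was 2 with DESeq2, 1 with no low-count filter, 1 without the 3 libraries with Xist and 0 without WT TAC 3 and JP2CR TAC 3. When single libraries were left out it was 0 to 2, and the count called lower was 0 to 1. For JP2CR against WT in TAC the count called higher was 1. It was 3 with DESeq2, 2 with a minimum of 1 CPM in 8 libraries and 1 without the 3 libraries with Xist. It was 0 without WT TAC 3 and JP2CR TAC 3, 0 when the 3 libraries with Xist were left out as well, and 0 to 2 when single libraries were left out. The cause was not tested. Same-numbered replicates did not deviate together (correlations -0.048 to 0.106). With the replicate number as a block, 20 members were called lower in WT, 5 higher and 19 lower in JP2CR, 0 for the interaction and 1 between genotypes in TAC, and the block lost Kcnmb1 in WT and Kcnc1 and Kcna7 in JP2CR. Depth limits members below about 1 CPM, where the limit of a count of 0 was 0.185 to 0.3137 CPM.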
